A study of Homo sapiens with 24 samples.

Results

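The genes examined here encode the retinoblastoma pocket proteins and the DREAM complex, the machinery through which CDK4/6 inhibition acts on cell cycle transcription. They were RB1, RBL1 and RBL2 (the pocket proteins), LIN9, LIN37, LIN52 and LIN54 (subunits of the MuvB core), MYBL2 and FOXM1 (the activators that bind MuvB) and KDM5A (a histone demethylase that binds Rb). These 10 genes were chosen by name and read as rows of a table of 59609 named genes; 9 of them had enough counts to be tested, and LIN37 did not. Expression was measured by 3′ RNA-seq in MDA-MB-231, a mesenchymal ER-negative breast cancer line, and MDA-MB-453, a second ER-negative breast cancer line. Both lines are labelled wild-type, and each was treated for 5 days with DMSO, with 500 nM abemaciclib (an inhibitor of CDK4 and CDK6), with 5 nM fulvestrant (a degrader of the oestrogen receptor) or with both drugs, called the combination here. Each of the 8 groups had 3 libraries, described by the study as independent biological replicates of an experiment performed once. The lines were grown in different media, so that an effect of the line and of its medium cannot be told apart.

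When CDK4 and CDK6 are active, they phosphorylate the pocket proteins and release E2F transcription factors, which switch on the genes of DNA replication. In quiescent cells the MuvB core joins p130 (RBL2) or p107 (RBL1) and E2F4 to form DREAM, which represses cell cycle genes through E2F sites and through the cell cycle genes homology region (CHR), an element bound by LIN54. In cycling cells MuvB leaves the pocket protein and binds B-Myb (MYBL2) and then FOXM1 to activate the genes of mitosis, and RBL1, MYBL2 and FOXM1 are themselves targets of this system.

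Library totals ran from 2873558 to 4158762 counts. The 5 mesenchymal markers VIM, CD44, AXL, CAV1 and MSN summed to between 2965 and 3955 CPM (counts scaled to library size) in MDA-MB-231 libraries and to at most 1.87 CPM in MDA-MB-453, where 1 of 5 had any count. The mean mitochondrial share of the counts moved with abemaciclib, from a DMSO mean of 15.2% to 23.8% in MDA-MB-453 and of 8.83% to 12.2% in MDA-MB-231, and its part in the results was not tested beyond refitting without mitochondrial genes, which changed no call among the 10 genes in any comparison.

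The promoters of RBL1, MYBL2 and RBL2 are shown because, of the genes with a window, the first pair had the largest decreases with abemaciclib in MDA-MB-453, and RBL2 was the pocket protein gene that rose. RefSeq promoter windows on GRCh38.p14, from 250 bases before to 50 bases after the annotated start, were found for 9 of the 10 genes, and that of RB1 was not used because its start lies 172706 bases inside the gene. Capitals mark E2F-like words (the word TTCCCGC, the word TTGGCGC, the word TTCGCGC and the word TTGCCGC), the same words ending in G (the word TTCCCGG, the word TTGGCGG, the word TTCGCGG and the word TTGCCGG, added after the first search had found none of the others in MYBL2) and CHR words (the word TTTGAA and the word TTCGAA), all searched on both strands.
RBL1 (chr20:37095948-37096247, minus strand): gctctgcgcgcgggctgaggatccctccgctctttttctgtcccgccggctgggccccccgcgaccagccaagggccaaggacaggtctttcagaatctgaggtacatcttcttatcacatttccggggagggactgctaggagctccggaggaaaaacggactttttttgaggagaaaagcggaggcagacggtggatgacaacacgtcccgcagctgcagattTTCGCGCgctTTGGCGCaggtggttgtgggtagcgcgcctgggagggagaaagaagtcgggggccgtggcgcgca
MYBL2 (chr20:43666864-43667163, plus strand): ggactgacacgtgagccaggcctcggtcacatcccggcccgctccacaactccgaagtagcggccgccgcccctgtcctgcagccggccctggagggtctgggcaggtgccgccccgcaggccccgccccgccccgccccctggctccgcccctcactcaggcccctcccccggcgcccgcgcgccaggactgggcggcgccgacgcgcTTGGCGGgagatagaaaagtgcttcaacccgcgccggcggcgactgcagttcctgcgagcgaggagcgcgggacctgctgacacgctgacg
RBL2 (chr16:53434221-53434520, plus strand): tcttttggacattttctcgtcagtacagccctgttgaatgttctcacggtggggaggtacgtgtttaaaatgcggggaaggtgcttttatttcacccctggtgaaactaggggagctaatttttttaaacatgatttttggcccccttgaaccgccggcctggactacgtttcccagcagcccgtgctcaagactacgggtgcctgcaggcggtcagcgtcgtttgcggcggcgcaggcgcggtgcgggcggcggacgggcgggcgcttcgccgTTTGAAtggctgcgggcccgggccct
The first E2F-like set occurred in 13.1% of 27305 promoters of this length, the set ending in G in 13.5% and the CHR words in 16.6%. A word of the first set or of the set ending in G occurred in 23.8%. RBL1 held a pair of E2F-like words, at bases -25 to -19 and -15 to -9 from the start. LIN9 (-7 to -1) and LIN52 (-24 to -18) each held TTCCCGC. MYBL2 (-41 to -35), LIN54 (-92 to -86) and KDM5A (-126 to -120) held TTGGCGG. RBL2 (25 to 30) and LIN54 (-100 to -95) held TTTGAA, and LIN37 held none of these words. The start used for LIN54 lies 2103 bases from its GENCODE gene start, the largest such distance among the windows used. On GRCh38 (GENCODE 44) the pocket protein genes lie at chr13:48303744-48599436 (RB1, plus strand), chr20:36996349-37095997 (RBL1, minus strand) and chr16:53433977-53491648 (RBL2, plus strand). MYBL2 lies at chr20:43667019-43716495 (plus strand), FOXM1 at chr12:2857680-2877174 (minus strand) and KDM5A at chr12:280057-389320 (minus strand). A match describes the letters in the window and is not evidence of binding.

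The pocket protein genes did not move together under abemaciclib. RBL1 fell in both lines, RBL2 rose in both lines, and RB1 fell in MDA-MB-453 without passing the test in MDA-MB-231. Of the 9 tested genes, 5 were called lower and 1 higher with abemaciclib against DMSO in MDA-MB-231, where 16.9% of the 11314 genes tested were called lower and 16.9% higher. In MDA-MB-453, 5 were called lower and 2 higher, against 19.4% lower and 16.6% higher among 11080 genes. A gene was called at an adjusted p below 0.05 in edgeR's quasi-likelihood test, with Benjamini-Hochberg adjustment over all genes tested. The median log2 fold change of the 9 genes was -0.53 in MDA-MB-453 and -0.91 in MDA-MB-231, and that of all genes was near 0 in both lines (-0.0019 and -0.0006). In bulk samples, fewer cells in a phase of the cycle and less RNA per cell cannot be told apart.

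RBL1, which encodes p107, was at 24.5, 26.3 and 35.7 CPM in the DMSO libraries of MDA-MB-231 and at 12.9, 15.2 and 10.7 CPM with abemaciclib. Every abemaciclib library lay below every DMSO library, and the log2 fold change was -1.16 (SE 0.23, adjusted p = 1.3e-04, edgeR). In MDA-MB-453, RBL1 went from 9.19, 8.07 and 6.37 CPM to 0.803, 2.11 and 0 CPM, which rest on 3, 7 and 0 counts. Its log2 fold change there was -2.95 (SE 0.54, adjusted p = 2.0e-05, edgeR), and the mean with abemaciclib was 12.3% of the DMSO mean. RBL1 shares 213 exon bases with an antisense lncRNA, none in its last 1000 bases.

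RBL2, which encodes p130, the pocket protein of quiescent cells, was at 2.39, 1.73 and 5.61 CPM under DMSO in MDA-MB-231 and at 10.1, 5.06 and 9.61 CPM with abemaciclib. The DMSO values rest on 8, 6 and 19 counts. The ranges overlapped, and the rise of 1.35 in log2 fold change (SE 0.44, adjusted p = 0.0159, edgeR) lost its call without DMSO replicate 1 (1.17), DMSO replicate 2 (1.04), abemaciclib replicate 1 (1.18) or abemaciclib replicate 3 (1.22). In MDA-MB-453 the DMSO libraries gave 17.2, 34.8 and 18.5 CPM and the abemaciclib libraries 31.9, 39.8 and 41.9 CPM. DMSO replicate 2 was higher than the lowest abemaciclib library, and the rise of 0.67 (SE 0.21, adjusted p = 0.0102, edgeR) lost its call without DMSO replicate 1 (0.49) or DMSO replicate 3 (0.53). RBL2 shares 609 exon bases with AKTIP, which is transcribed in the opposite direction, and all 609 lie in the last 1000 genomic bases of RBL2. RBL2 also shares 721 exon bases with ENSG00000279344 on the other strand, none of them in that stretch. Whether counting used strand is not given in the sources used here. AKTIP was at 3.45 and 5.99 CPM in these MDA-MB-231 groups and at 7.60 and 9.42 CPM in MDA-MB-453, without a call in either line, and its part in the RBL2 counts was not tested.

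RB1, the founding pocket protein gene, was at 55.5, 49.3 and 51.1 CPM under DMSO and at 40.5, 36.3 and 42.7 CPM with abemaciclib in MDA-MB-231. The ranges did not overlap, but the log2 fold change of -0.38 (SE 0.16) did not pass the test (adjusted p = 0.0646, edgeR). In MDA-MB-453 it went from 59.6, 62.9 and 61.4 CPM to 44.7, 46.1 and 36.5 CPM, and fell by 0.53 on the log2 scale (SE 0.15, adjusted p = 0.0046, edgeR). The difference of the RB1 effect between lines was -0.15 (95% interval -0.59 to 0.30).

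A score of how far transcripts with a run of at least 12 A bases, where oligo-dT could prime internally, stood above or below other genes in each library was also computed. In MDA-MB-453 it ran from -0.0405 to -0.0341 in DMSO libraries and from -0.0229 to 0.0548 in the other groups, so that the DMSO libraries did not overlap the others and the score cannot be told apart from treatment in that line. In MDA-MB-231 the combination libraries ran from 0.0243 to 0.0506, above those of fulvestrant (-0.0706 to 0.0165) and of DMSO (0.0 to 0.0197). For the combination against either of these groups, score and treatment cannot be told apart in MDA-MB-231. With the score as a covariate the MDA-MB-453 calls for RB1 (-0.12), RBL2 (0.18), LIN9 (-1.42) and KDM5A (-0.34) were lost, and those for RBL1, MYBL2 and FOXM1 were kept. Among the 10 genes only LIN52 (longest run 29) and KDM5A (12) have such a run.

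**Figure D1:**
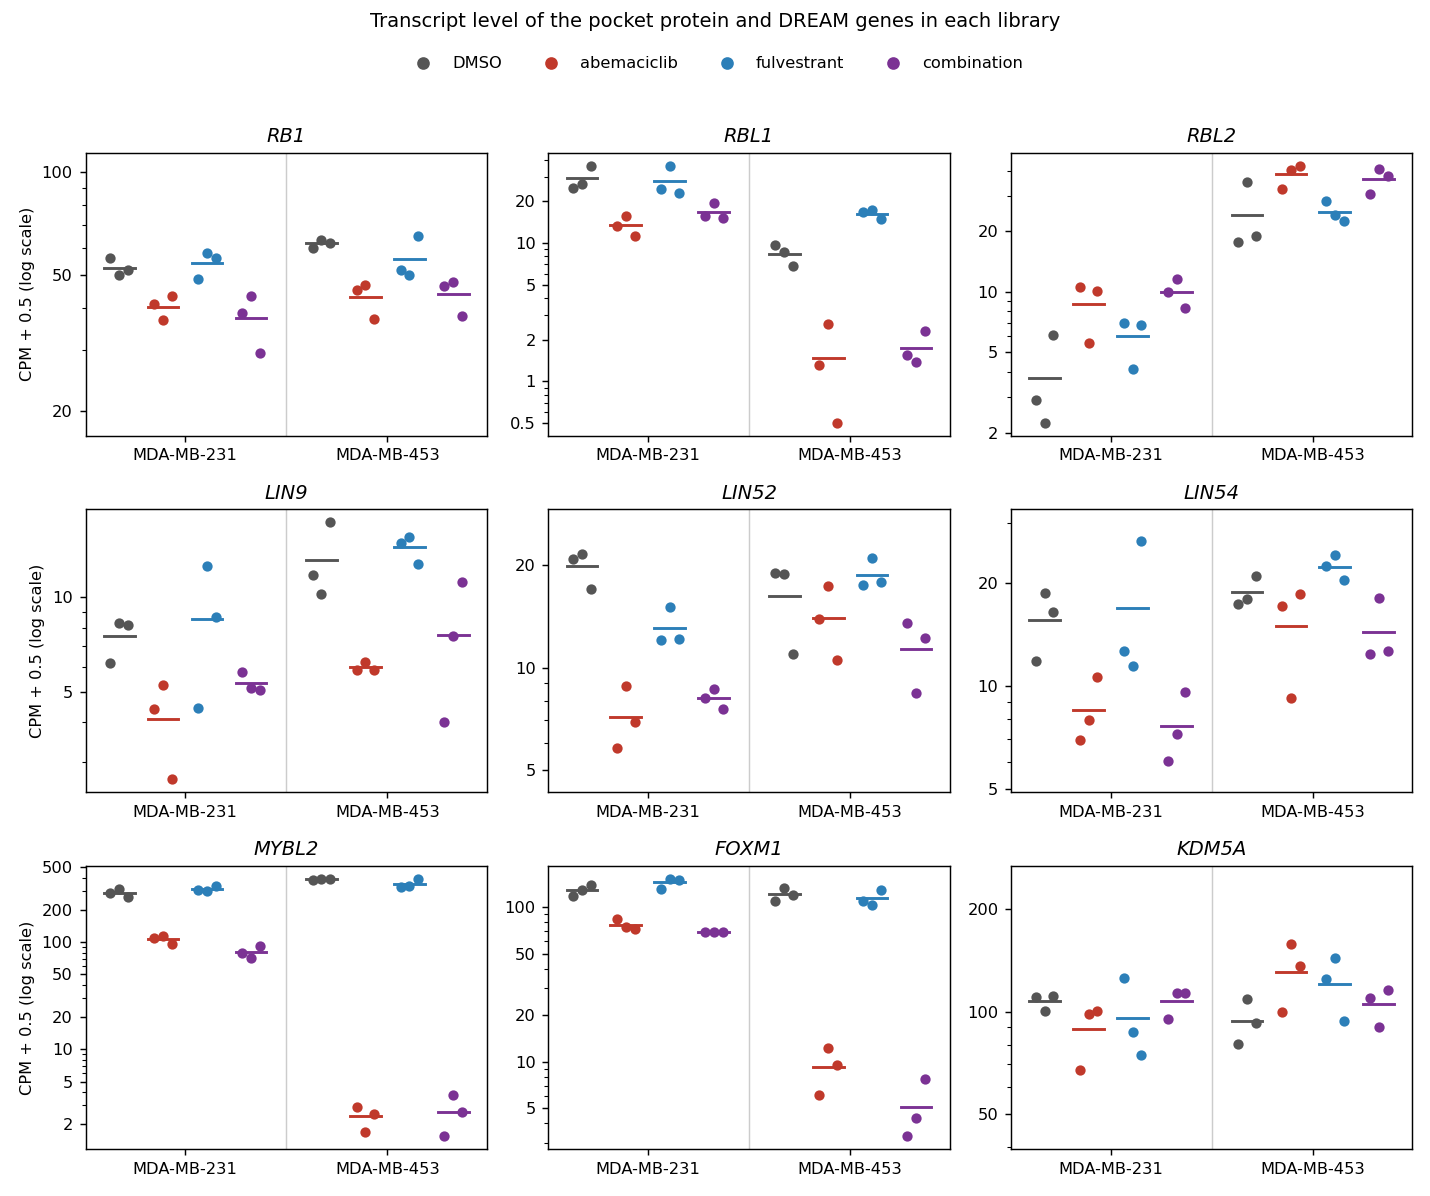
Transcript level of the 9 tested genes in each of the 24 libraries, as CPM + 0.5 on a log axis. Points are libraries, horizontal lines are group means and colours are treatments. In MDA-MB-453 with abemaciclib or the combination MYBL2 was at most 3.22 CPM and FOXM1 at most 11.7 CPM, and in MDA-MB-231 both stayed above 68 CPM, while KDM5A overlapped between most groups.

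Of the MuvB core, LIN52 and LIN54 fell with abemaciclib in MDA-MB-231 and LIN9 fell in MDA-MB-453, and LIN52 was the one whose effect differed between lines by test. LIN52, whose product joins the pocket protein to MuvB, was at 20.3, 21.1 and 16.5 CPM under DMSO in MDA-MB-231 and at 5.31, 8.33 and 6.41 CPM with abemaciclib, and fell by 1.53 on the log2 scale (SE 0.29, adjusted p = 5.7e-05, edgeR). In MDA-MB-453 the DMSO libraries (18.4, 18.4 and 10.4 CPM) overlapped those with abemaciclib (13.4, 16.9 and 10.0 CPM). The log2 fold change there was -0.23 (95% interval -0.79 to 0.33). The difference between lines was 1.31 (SE 0.40, adjusted p = 0.0133, edgeR) and lost its call without MDA-MB-231 abemaciclib replicate 1 (1.10), MDA-MB-453 DMSO replicate 3 (1.02) or MDA-MB-453 abemaciclib replicate 2 (1.04), or with the A-stretch score (1.31, adjusted p = 0.0521, edgeR).

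LIN54, the subunit that contacts the CHR, was at 11.3, 18.2 and 15.9 CPM under DMSO in MDA-MB-231 and at 6.43, 7.44 and 10.1 CPM with abemaciclib. The log2 fold change of -0.91 (SE 0.33, adjusted p = 0.0269, edgeR) lost its call in DESeq2 (adjusted p = 0.0676) and without DMSO replicate 2 (-0.76), DMSO replicate 3 (-0.87), abemaciclib replicate 1 (-0.78) or abemaciclib replicate 2 (-0.86). In MDA-MB-453 it was at 16.9, 17.5 and 20.6 CPM under DMSO and at 16.6, 8.73 and 18.1 CPM with abemaciclib, with a log2 fold change of -0.35 (95% interval -0.87 to 0.17). LIN9, the scaffold of the core, went from 5.67, 7.79 and 7.67 CPM to 3.91, 4.76 and 2.14 CPM in MDA-MB-231, without a call (-0.97, SE 0.45, adjusted p = 0.0973, edgeR). In MDA-MB-453 LIN9 fell from 11.3, 9.74 and 16.8 CPM to 5.35, 5.72 and 5.36 CPM (-1.20, SE 0.35, adjusted p = 0.0058, edgeR), and the call was lost without DMSO replicate 3 (-0.94). The difference of the effect between lines was not called for LIN9 (-0.22, 95% interval -1.38 to 0.93) or LIN54 (0.57, 95% interval -0.29 to 1.44).

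LIN37, the remaining gene of the core, had 0 counts in 23 of the 24 libraries and 2 counts in MDA-MB-231 combination replicate 2. In GENCODE 44, a later release than the one the study counted on, its exons share 752 bases with a second gene on the same strand (ENSG00000188223). Of these bases, 342 lie in the last 1000. Reads that fall on 2 genes may go uncounted depending on the counting options. The near-absence of LIN37 from the table was therefore not read as absence of the transcript.

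MYBL2 showed the largest change of the 10 genes. In MDA-MB-453 it was at 383, 390 and 389 CPM under DMSO, from 1290, 1401 and 1344 counts, and at 2.41, 1.21 and 2.01 CPM with abemaciclib, from 9, 4 and 6 counts. The mean with abemaciclib was 0.484% of the DMSO mean, and MYBL2 fell by 7.66 on the log2 scale (SE 0.18, adjusted p = 8.4e-34, edgeR). In MDA-MB-231 it went from 284, 310 and 262 CPM to 109, 114 and 95.3 CPM, which left 37.2% of the DMSO mean (-1.42, SE 0.11, adjusted p = 7.1e-14, edgeR). The groups did not overlap in either line, and the call held under each of the 13 alternatives run in each line.

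FOXM1, the activator of late mitotic genes, followed MYBL2 in direction. It was at 117, 128 and 139 CPM under DMSO and at 83.5, 73.2 and 71.5 CPM with abemaciclib in MDA-MB-231 (log2 fold change -0.75, SE 0.12, adjusted p = 2.7e-06, edgeR). In MDA-MB-453 it was at 109, 132 and 119 CPM under DMSO and at 5.62, 11.7 and 9.04 CPM with abemaciclib, or 7.32% of the DMSO mean (-3.79, SE 0.19, adjusted p = 6.2e-21, edgeR). Its exons share 782 bases with ITFG2 on the other strand, 652 of them near the FOXM1 3′ end. ITFG2 had a mean of 8.39 CPM under DMSO and 3.98 CPM with abemaciclib in MDA-MB-231 (adjusted p = 0.0512, edgeR). In MDA-MB-453 its means were 3.16 and 4.23 CPM, and its part in the FOXM1 counts was not tested.

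KDM5A, an H3K4 demethylase, was not called lower in either line. In MDA-MB-231 its DMSO libraries (110.1, 99.8 and 110.7 CPM) overlapped those with abemaciclib (66.8, 97.6 and 100.1 CPM), with a log2 fold change of -0.27 (95% interval -0.57 to 0.02). In MDA-MB-453 it was at 79.8, 108.8 and 92.1 CPM under DMSO and at 99.04, 157 and 135 CPM with abemaciclib. The ranges overlapped, and the rise of 0.47 (SE 0.14, adjusted p = 0.0077, edgeR) lost its call without DMSO replicate 1 (0.37) or abemaciclib replicate 2 (0.31) and turned to -0.34 with the A-stretch score. KDM5A shares 48 exon bases with CCDC77 on the other strand, none in its last 1000 bases. CCDC77 went from a mean of 5.91 to 3.97 CPM in MDA-MB-453 without a call.

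The same drug given on top of fulvestrant was measured in separate libraries, as the combination against fulvestrant alone. In MDA-MB-231, 5 of the 9 genes were called lower and 0 higher, where 18.5% and 17.6% of all genes were called lower and higher. In MDA-MB-453, 6 were called lower and 1 higher, against 19.4% and 17.2% of all genes. MYBL2 fell by 1.96 (SE 0.11) from a mean of 314 to 80.2 CPM in MDA-MB-231. In MDA-MB-453 it fell by 7.31 (SE 0.18) from 351 to 2.12 CPM, with 3, 11 and 8 counts left. FOXM1 fell by 1.07 (SE 0.12) in MDA-MB-231. It fell by 4.54 (SE 0.21) in MDA-MB-453. These 4 changes held under each alternative run.

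RBL1 fell by 0.75 (SE 0.23, adjusted p = 0.0081, edgeR) in MDA-MB-231. It fell by 3.59 (SE 0.49, adjusted p = 7.2e-08, edgeR) in MDA-MB-453, from a mean of 15.8 to 1.25 CPM. The combination libraries of that line held 3, 3 and 7 counts of RBL1. Its means there were 7.88 CPM under DMSO and 0.97 CPM with abemaciclib. The MDA-MB-231 call was lost without fulvestrant replicate 2 (-0.51) and once the A-stretch score was a covariate (-0.47). RBL2 was at 0.79 (SE 0.41, adjusted p = 0.129, edgeR) in MDA-MB-231 without a call. It rose by 0.55 (SE 0.21, adjusted p = 0.0354, edgeR) in MDA-MB-453, a call lost in DESeq2 (adjusted p = 0.0883), with no filter on low counts (0.52), and without combination replicate 2 (0.46) or 3 (0.53) or fulvestrant replicate 2 (0.52) or 3 (0.47). RB1 fell by 0.54 (SE 0.16, adjusted p = 0.0065, edgeR) in MDA-MB-231, a call lost without combination replicate 3 (-0.40) or once the A-stretch score was a covariate (-0.48), and was at -0.34 (adjusted p = 0.0771, edgeR) in MDA-MB-453.

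Of the MuvB genes, LIN54 fell by 1.19 (SE 0.32) in MDA-MB-231, a call lost without fulvestrant replicate 3 (-0.67) or with the A-stretch score (-1.16). LIN52 was at -0.72 (SE 0.29, adjusted p = 0.0501, edgeR) in that line, just outside the threshold. In MDA-MB-453, LIN9 fell by 0.94 (SE 0.33), LIN52 by 0.75 (SE 0.28) and LIN54 by 0.65 (SE 0.26), with adjusted p of 0.0233, 0.0306 and 0.0403 in edgeR. Each of these 3 calls was lost when some single libraries were left out. For LIN9 these were combination replicates 1 (-0.65) and 2 (-0.93) and fulvestrant replicates 1 (-0.92) and 2 (-0.88). For LIN52 they were combination replicates 2 (-0.57) and 3 (-0.82) and fulvestrant replicate 2 (-0.66), and DESeq2 also lost it (adjusted p = 0.0590). For LIN54 they were combination replicates 1 (-0.57) and 3 (-0.56) and fulvestrant replicates 1 (-0.65) and 2 (-0.59), and DESeq2 also lost it (adjusted p = 0.0746). KDM5A was at 0.17 in MDA-MB-231 (95% interval -0.13 to 0.46) and at -0.20 in MDA-MB-453 (95% interval -0.49 to 0.08), without a call in either line. It was called at 0.41 without MDA-MB-231 fulvestrant replicate 1, at -0.36 without MDA-MB-453 fulvestrant replicate 3 and at -0.27 in MDA-MB-453 with the A-stretch score.

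**Figure D2:**
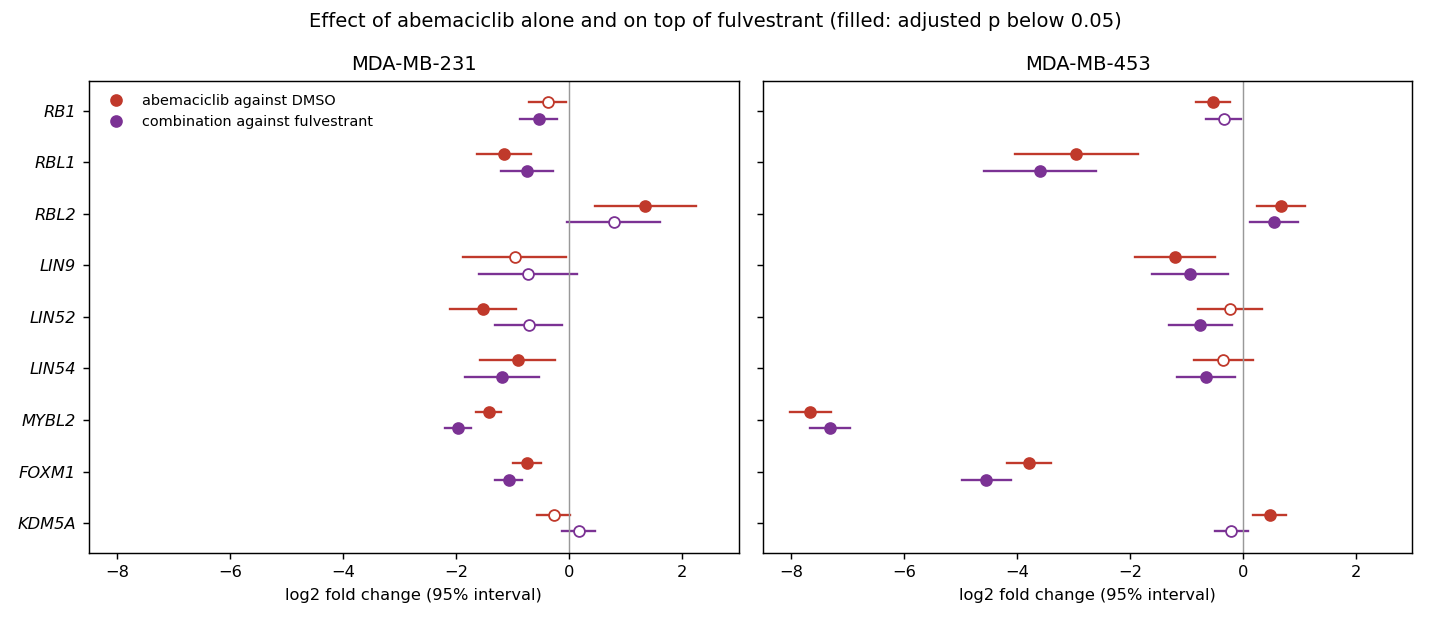
Log2 fold change with its 95% interval for the 9 tested genes in MDA-MB-231 (left) and MDA-MB-453 (right). Red is abemaciclib against DMSO, purple is the combination against fulvestrant, and filled points passed the test. MYBL2 lies at -7.66 and -7.31 in MDA-MB-453, and RBL2 is to the right of 0 in all 4 contrasts.

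Against DMSO, the combination called 6 genes lower and 1 higher in MDA-MB-231 (18.3% and 17.0% of all genes) and 4 lower and 1 higher in MDA-MB-453 (20.0% and 17.6%). This comparison shares its DMSO libraries with abemaciclib against DMSO, so its values are given beside those above only as a description. In the combination RB1 was at -0.49 in both lines, RBL1 at -0.82 and -2.58, RBL2 at 1.55 and 0.62, MYBL2 at -1.83 and -7.44, and FOXM1 at -0.90 and -4.62, all called. LIN52 (-1.33) and LIN54 (-1.08) were called in MDA-MB-231 and not in MDA-MB-453 (-0.53 and -0.38). LIN9 (-0.54 and -0.79) and KDM5A (0.00 and 0.17) were not called in either line.

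Several of these calls were lost or gained when a single library was left out. Leaving a library out also lowers the power of the test, so a lost call does not show that the library decided it. In MDA-MB-231, RB1 was lost without DMSO replicate 1 (-0.44) or combination replicate 3 (-0.35), RBL1 without DMSO replicate 3 (-0.61) and LIN54 without DMSO replicate 2 (-0.93). In MDA-MB-453, RB1 was lost without combination replicate 3 (-0.38). RBL2 in that line was lost without DMSO replicate 1 (0.44) or 3 (0.47) or combination replicate 2 (0.53) or 3 (0.60). Under the A-stretch covariate RB1 (-0.22) and RBL2 (0.31) lost their calls in MDA-MB-453. LIN9 was called there without DMSO replicate 2 (-0.95) or combination replicate 3 (-1.21), and LIN52 without DMSO replicate 3 (-0.75).

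Fulvestrant alone called 0 of the 9 genes in either line in edgeR, and 0 in DESeq2, which gave an adjusted p to 2 of the 10 genes in MDA-MB-453. At an unadjusted p below 0.05 there was 1 gene in MDA-MB-231 (LIN52, -0.62) and 2 in MDA-MB-453 (RBL1, 1.01, and KDM5A, 0.38). The share of all genes called at an adjusted p below 0.05 was 1.41% in MDA-MB-453 and 0.0% in MDA-MB-231. The share of all genes at the unadjusted threshold is not given here, so those gene counts cannot be set against it. RBL1 in MDA-MB-453 was at 9.19, 8.07 and 6.37 CPM under DMSO and at 16.2, 16.8 and 14.3 CPM with fulvestrant. The groups did not overlap, and the adjusted p was 0.191 (edgeR). KDM5A was called without MDA-MB-453 fulvestrant replicate 3 (0.53).

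Adding fulvestrant to abemaciclib called 0 of the 9 genes in either line in edgeR, where 2.46% of all genes were called in MDA-MB-453 and 0.0265% in MDA-MB-231. At an unadjusted p below 0.05 there was 1 gene in MDA-MB-231 (MYBL2) and 2 in MDA-MB-453 (FOXM1 and KDM5A). The share of all genes at that unadjusted threshold is not given here either. DESeq2 called 1 (MYBL2 in MDA-MB-231) and 0, of 1 and 5 genes to which it gave an adjusted p. MYBL2 in MDA-MB-231 was at 109, 114 and 95.3 CPM with abemaciclib and at 78.8, 70.6 and 91.3 CPM with the combination. Every combination library lay below every abemaciclib library. The log2 fold change was -0.41 in edgeR (SE 0.11, adjusted p = 0.152) and -0.40 in DESeq2 (adjusted p = 0.0190). In edgeR it was called without abemaciclib replicate 3 (-0.48). FOXM1 in MDA-MB-453 was at 5.62, 11.7 and 9.04 CPM with abemaciclib and at 2.81, 3.81 and 7.26 CPM with the combination (-0.83, SE 0.29, adjusted p = 0.127, edgeR), and was called without abemaciclib replicate 1 (-1.10) or combination replicate 3 (-1.34). KDM5A in MDA-MB-453 (-0.30, adjusted p = 0.308, edgeR) was called without abemaciclib replicate 1 (-0.47).

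Under DMSO the largest differences between the 2 lines were those of RBL2 and RBL1. RBL2 was higher in MDA-MB-453, at 23.5 ± 9.78 CPM (SD, n = 3) against 3.24 ± 2.08 in MDA-MB-231, which rests on 33 counts. The log2 difference was 2.85 (SE 0.34, adjusted p = 3.0e-10, edgeR). The overlap of RBL2 with AKTIP applies to these counts too, and its part was not tested. RBL1 was lower in MDA-MB-453, at 7.88 ± 1.42 against 28.8 ± 6.04 CPM (-1.87, SE 0.29, adjusted p = 2.2e-07, edgeR). MYBL2 was higher in MDA-MB-453, at 387 ± 3.99 against 285 ± 23.9 CPM (0.44, SE 0.10, adjusted p = 2.2e-04, edgeR). LIN9 was called higher in MDA-MB-453 (0.83, adjusted p = 0.0398, edgeR). That call was lost under 8 of its 13 alternatives, among them each single MDA-MB-231 DMSO library (0.70, 0.91 and 0.89 without replicates 1, 2 and 3) and MDA-MB-453 DMSO replicate 3 (0.57). Of the 9 genes, MDA-MB-453 had 3 called higher and 1 lower, where 34.3% and 35.6% of 12750 genes were, and RB1 (0.24, 95% interval -0.07 to 0.54) and FOXM1 (-0.09, 95% interval -0.36 to 0.18) were not called.

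Across the 8 groups the 4 lowest mean levels of MYBL2, FOXM1 and RB1 were those of the 4 groups with abemaciclib or the combination, and the DMSO and fulvestrant groups were higher. For MYBL2 the MDA-MB-453 groups with abemaciclib or the combination were lowest and overlapped each other, followed by MDA-MB-231 with the combination and then with abemaciclib, each apart from the group before. The 4 groups without abemaciclib came next, from 285 to 387 CPM. The lowest of them, MDA-MB-231 DMSO, lay apart from the group before, and among the 4 each neighbour overlapped. FOXM1 had the same 4 lowest groups. Its 4 highest ran from 113 to 144 CPM, with MDA-MB-453 fulvestrant apart from the group before and each neighbour overlapping among the 4. For RBL2 the order followed the line, with every MDA-MB-231 group at or below 9.49 CPM and every MDA-MB-453 group at or above 23.5 CPM. For RB1 the 4 lowest groups, from 36.7 to 43.5 CPM, overlapped their neighbours, the next group, MDA-MB-231 DMSO at 52.0 CPM, lay apart from them, and the order went on to 61.3 CPM in MDA-MB-453 DMSO with each neighbour overlapping. KDM5A ran from 88.2 to 130.4 CPM with every neighbour overlapping.

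The effect of abemaciclib was compared between lines by an interaction over all 24 libraries, coded as MDA-MB-453 minus MDA-MB-231. MYBL2 (-6.22, SE 0.24, adjusted p = 1.0e-25, edgeR), FOXM1 (-3.03, SE 0.24, adjusted p = 1.7e-14, edgeR) and RBL1 (-1.78, SE 0.56, adjusted p = 0.0181, edgeR) fell further in MDA-MB-453. LIN52 (1.31) and KDM5A (0.75, SE 0.23, adjusted p = 0.0148, edgeR) had the higher value there. In all 3 genes had a lower and 2 a higher effect in MDA-MB-453, where 13.0% and 7.72% of all genes did. The RBL1 difference was lost without MDA-MB-453 abemaciclib replicate 3 (-1.35), the library at 0 counts, and with the A-stretch score (-1.61). The KDM5A difference was lost under 9 alternatives, among them DESeq2 (adjusted p = 0.0619) and the A-stretch score (0.19).

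The libraries whose removal ended the KDM5A difference were MDA-MB-231 DMSO replicates 1 (0.66) and 3 (0.67), MDA-MB-231 abemaciclib replicate 1 (0.52), MDA-MB-453 DMSO replicates 1 (0.59) and 3 (0.68) and MDA-MB-453 abemaciclib replicates 2 (0.52) and 3 (0.65). The separate libraries of the combination and fulvestrant gave differences of -5.34 for MYBL2 (SE 0.24), -3.47 for FOXM1 (SE 0.26) and -2.84 for RBL1 (SE 0.50, adjusted p = 2.5e-05, edgeR), so that 3 genes were called lower and 0 higher, where 11.3% and 6.82% of all genes were. LIN52 (-0.03, 95% interval -0.85 to 0.79) and KDM5A (-0.37, 95% interval -0.83 to 0.09) were not called in it, and KDM5A was called without MDA-MB-231 fulvestrant replicate 1 (-0.60). RBL2 was not called in either interaction (-0.67, 95% interval -1.59 to 0.25, and -0.24, 95% interval -1.07 to 0.59).

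**Figure D3:**
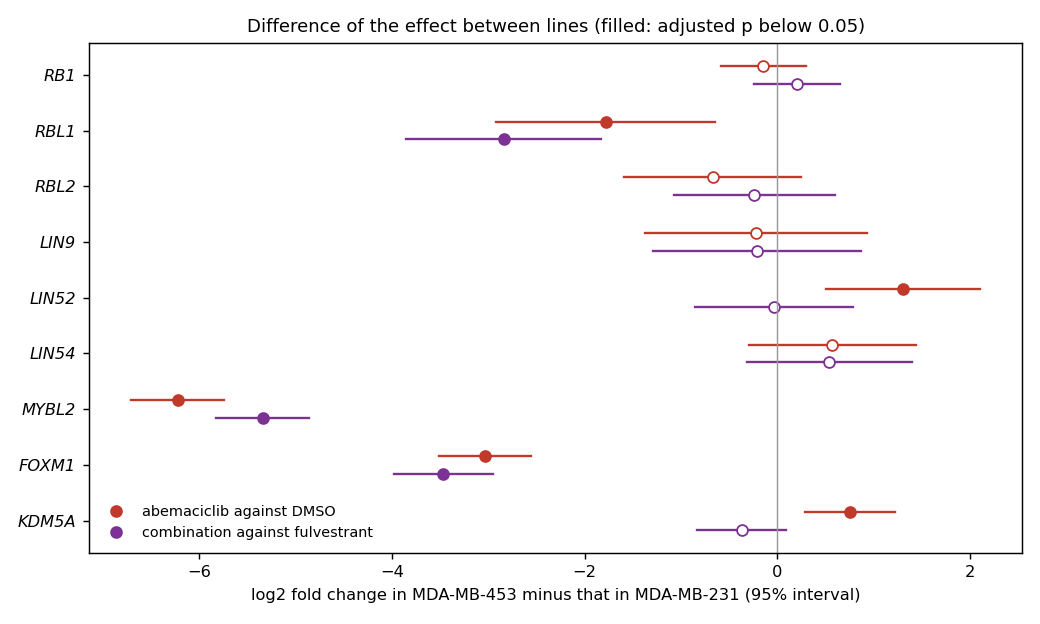
Effect in MDA-MB-453 minus effect in MDA-MB-231, as a log2 difference with its 95% interval, for abemaciclib against DMSO (red) and the combination against fulvestrant (purple). Filled points passed the test. MYBL2, FOXM1 and RBL1 are filled on the left of 0 in both contrasts, and LIN52 and KDM5A are filled in the first alone.

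The other genes of the pathway were counted in lists written from general knowledge, with earlier results of these data known. Their calls are those of the main test, and the alternatives are not reported for them. With abemaciclib, 16.9% of all genes tested were called lower and 16.9% higher in MDA-MB-231, and 19.4% and 16.6% in MDA-MB-453. Of the 6 remaining DREAM subunits and their kinase (RBBP4, E2F4, E2F5, TFDP1, TFDP2 and DYRK1A), 2 fell and 0 rose with abemaciclib in each line, with medians of -0.34 and -0.35. TFDP1, an E2F partner, fell in both lines (-1.07 in MDA-MB-453 and -0.51 in MDA-MB-231). DYRK1A, the kinase that promotes DREAM assembly, fell in MDA-MB-231 (-0.53), and TFDP2 fell in MDA-MB-453 (-0.87). E2F4, the E2F of DREAM, was at -0.32 and -0.14 without a call.

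Of the 6 other E2F genes, 4 fell in MDA-MB-453, where E2F3 rose (0.65), and 3 fell in MDA-MB-231. E2F2 fell by 1.99 in MDA-MB-231 and E2F8, an atypical repressor, by 1.25. In MDA-MB-453, E2F2 went from 223, 198 and 169 counts to 1, 1 and 3 counts. E2F7, an atypical repressor, went from 16, 14 and 4 counts to 0 in every library of that line, at least 11.6-fold lower when its total over the group is set at a floor of 3 counts. The list medians were -0.49 and -3.49, the second being -3.21 with E2F7 at that bound.

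Of the 4 paralogs, KDM5B, a second H3K4 demethylase, rose in both lines (by 1.38 in MDA-MB-453 with an adjusted p of 6.8e-12, and by 0.68 in MDA-MB-231 with an adjusted p of 0.0105, edgeR). MYBL1 fell in MDA-MB-453, from 15, 6 and 10 counts to 1, 0 and 0. MYB and KDM5C were not called in either line, and the list medians were 0.17 and -0.10.

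Of the 8 cyclins and CDKs that act on the pocket proteins, 7 were tested in each line, and 1 rose and 3 fell in MDA-MB-231 against 1 and 5 in MDA-MB-453, with medians of -0.32 and -0.72. CCND1, encoding the cyclin D1 partner of CDK4 and CDK6, was the one that rose (0.81 and 0.53). CCNE2, an E-type cyclin, fell by 1.25 in MDA-MB-231. In MDA-MB-453 it went from 53, 50 and 59 counts to 0, 0 and 1, and CCNE1 fell by 1.92.

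The targets fell broadly. Of 24 G2/M genes activated through MuvB, MYBL2 and FOXM1, 22 fell in MDA-MB-231 (median -0.96) and 24 in MDA-MB-453 (median -5.16), and 0 rose in either line. NEK2 (-1.90) and CDC20 (-1.61) fell most in MDA-MB-231. In MDA-MB-453 PLK1, a mitotic kinase, went from 522, 600 and 502 counts to 3, 0 and 2, and NEK2 from 65, 46 and 58 counts to 1, 0 and 0. Of 24 G1/S genes of the RB-E2F axis, 19 fell in MDA-MB-231 (median -0.84) and 24 in MDA-MB-453 (median -2.73). RRM2, a ribonucleotide reductase subunit, fell by 1.74 in MDA-MB-231 and CDC45, a helicase component, by 1.53. In MDA-MB-453 RRM2 went from 670, 728 and 679 counts to 5, 1 and 4, and TYMS, thymidylate synthase, from 84, 121 and 118 counts to 4, 0 and 2. In the separate combination and fulvestrant libraries 24 and 24 of the G2/M genes and 23 and 23 of the G1/S genes fell, with medians of -1.05 and -4.62 for G2/M and of -1.06 and -2.63 for G1/S in MDA-MB-231 and MDA-MB-453.

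**Figure D4:**
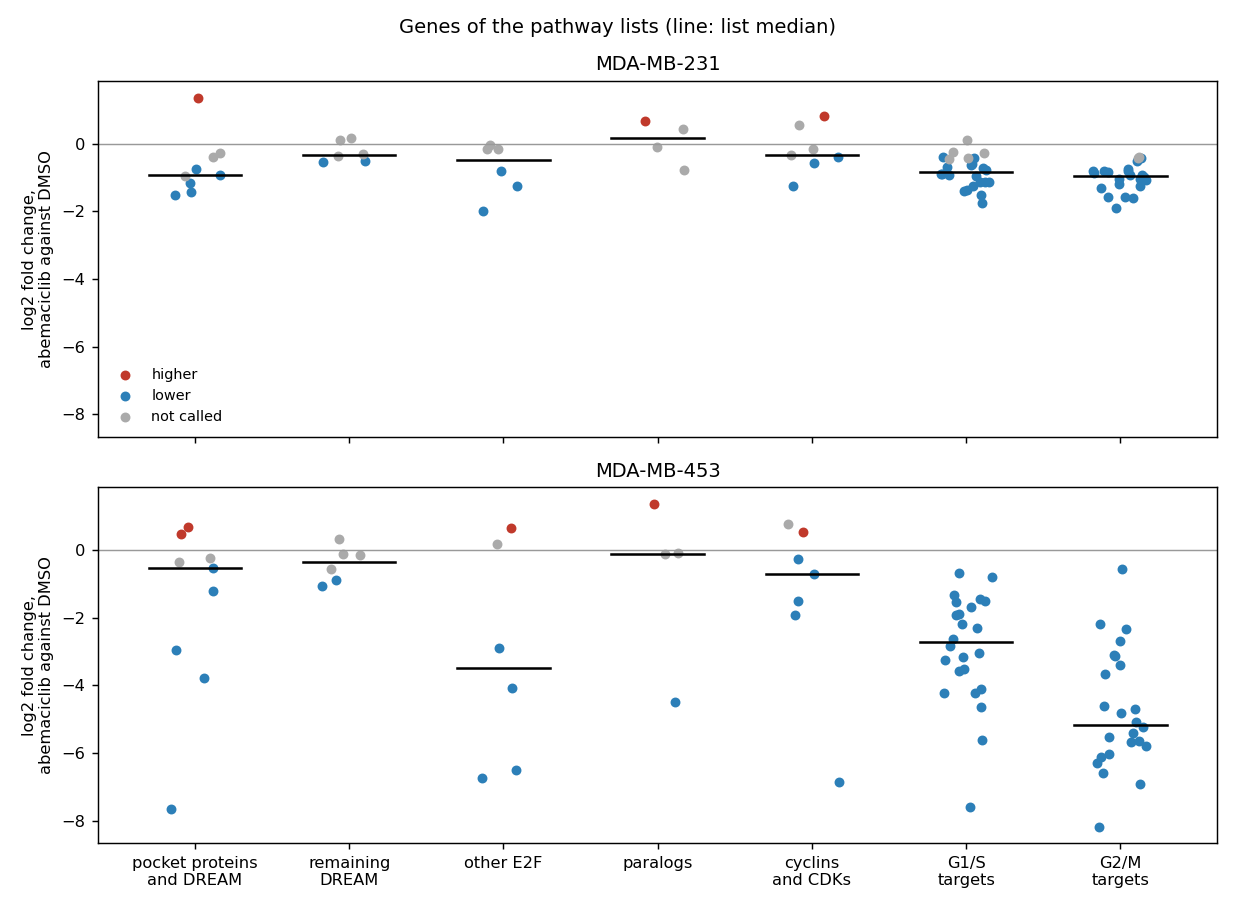
Log2 fold change with abemaciclib against DMSO for the tested genes among the 10 described here (9) and in 6 pathway lists, in MDA-MB-231 (top) and MDA-MB-453 (bottom). Red and blue points were called higher and lower, grey points were not called, and black lines are list medians. The G2/M median is -5.16 in MDA-MB-453 and -0.96 in MDA-MB-231.

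The genes with the most similar pattern were sought among 7819 genes by Pearson's r of log2 CPM over the 24 libraries, after centring each line on its own mean. The libraries share treatments and fall into groups with and without abemaciclib, so r is a description of that split. MYBL2 was closest to MCM2 (0.996), RRM2 (0.994) and MT2A (0.993), and FOXM1 to UBE2C (0.982), MCM6 (0.982) and KIF20A (0.980). RBL1 was closest to BUB1 (0.947), PSIP1 (0.945) and CDCA5 (0.938). RB1 was closest to SLC29A1 (0.921), MRPS22 (0.889) and RCC2 (0.887). RBL2 was closest to FNBP1L (0.864), FNDC3A (0.853) and TSPYL1 (0.822), and KDM5A to ESF1 (0.899), NFIC (0.857) and BAZ2A (0.854).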

How the data were processed

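RNA from 24 cultures of 2 cell lines was sequenced as 3′ RNA-seq (QuantSeq forward, single-end reads). The authors aligned reads to hg38 with STAR and counted them per gene with featureCounts on a GENCODE annotation, and the deposited table holds these raw gene counts, whole numbers without normalisation. Strand setting, multi-mapping reads, duplicates and molecular identifiers are not given in the sources used here, so counting floors cover counting error only. The 1 unnamed line holds 0 counts.

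The main test used edgeR 4.0.16 under R 4.3.3. Low genes were removed by filterByExpr by group, libraries scaled by TMM, and quasi-likelihood models fitted to the 12 libraries of a line (within-line comparisons) or to all 24 (between lines). Tests are 2-sided, adjusted by Benjamini-Hochberg over all genes tested, and called below 0.05. Printed CPM use 1 TMM scale over the 24 libraries. SE is the fold change divided by the square root of F, and intervals are 95%. Replicate libraries were checked for copies (chi-square per degree of freedom 2.64 to 8.65). Pairs with MDA-MB-231 fulvestrant replicate 1 gave 8.65 and 7.81, against 2.96 for the other pair of that group. Pairs with MDA-MB-453 fulvestrant replicate 3 gave 7.31 and 8.39, against 2.97 for the other pair. Pairs with MDA-MB-453 abemaciclib replicate 1 gave 7.67 and 8.18, against 3.76 for the other pair. The models were tested on simulated data. The p-values measure the spread between these cultures.

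Alternatives were DESeq2 1.42.0, its size factors, no filter, only the groups compared, a replicate block, removal of 37 mitochondrial genes, the A-stretch score as a covariate and leaving out each library. All 10 genes, the 2 most changed called genes of each list per line, and the genes called against most of their list are named; MYB, E2F4 and KDM5C were named after their values were seen. Gene positions and shared exon bases come from GENCODE 44, a later release than the one the study counted on. The genes and lists were chosen with earlier results of these data known. The marker list of MDA-MB-453 is not reported here.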

Additional observations from a re-analysis of the deposited data

Results flagged for a closer look

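The effects of abemaciclib in the 2 lines differed for 5 of the 9 tested genes, by an interaction test in edgeR over all 24 libraries, with 3 lower and 2 higher in MDA-MB-453 where 13.0% and 7.72% of all genes were. The differences, coded as MDA-MB-453 minus MDA-MB-231, were -6.22 for MYBL2, -3.03 for FOXM1, -1.78 for RBL1, 1.31 for LIN52 and 0.75 for KDM5A on the log2 scale. Under 19 alternatives each, the call was lost in 9 for KDM5A (0.19 with the A-stretch score), in 4 for LIN52 and in 2 for RBL1. For KDM5A the effects had opposite signs, 0.47 in MDA-MB-453 and -0.27 in MDA-MB-231, the second without a call.

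For the combination against fulvestrant, in separate libraries, 3 genes differed, all lower in MDA-MB-453 where 11.3% of all genes were: -5.34 for MYBL2, -3.47 for FOXM1 and -2.84 for RBL1. Of these differences, those of MYBL2 and FOXM1 held under every alternative run in both contrasts, and that of RBL1 held under every alternative in the second.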

How the results depend on the processing

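Of 1627 refits of a gene's fold change, 1483 kept direction and side of the threshold, 76 lost a call, 13 gained one and 55 changed sign. A called value changed sign in 1 of them, KDM5A in MDA-MB-453 with abemaciclib, which was -0.34 with the A-stretch score against 0.47. Of 181 refits of a count of called genes, 17 moved by over 1.5 times. With the A-stretch score the counts were 2 against 5 for the MDA-MB-231 combination against fulvestrant, 3 against 7 for abemaciclib and 3 against 5 for the combination against DMSO in MDA-MB-453, and 2 against 5 for the difference of the abemaciclib effect. With DESeq2 they were 1 against 0 for the MDA-MB-231 combination against abemaciclib and 4 against 7 for the MDA-MB-453 combination against fulvestrant. Leaving out 1 library each gave 0 to 1 for the MDA-MB-231 combination against abemaciclib, 0 to 1 for MDA-MB-453 fulvestrant against DMSO, 3 to 7 for the MDA-MB-453 combination against fulvestrant, 0 to 2 for the MDA-MB-453 combination against abemaciclib and 3 to 5 for the difference of the abemaciclib effect. Shares of all genes called under the same refits are not given here. A loss of calls across all genes and one particular to the genes described here therefore cannot be told apart. The cause was not tested. Scaling by DESeq2 size factors moved 3 of 80 group mean CPM by more than their SD.

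With the A-stretch score, an uncalled value changed sign in MDA-MB-231 fulvestrant against DMSO for LIN9 (-0.58) and KDM5A (0.11), and in the MDA-MB-231 combination against DMSO for KDM5A (-0.20). It did so in the MDA-MB-231 combination against fulvestrant for LIN9 (0.44) and KDM5A (-0.31), and in MDA-MB-453 fulvestrant against DMSO for RB1 (0.077), RBL2 (-0.20), MYBL2 (0.10) and KDM5A (-0.078). It did so in the MDA-MB-453 combination against DMSO for KDM5A (-0.35), and in the MDA-MB-453 combination against abemaciclib for RB1 (-0.094) and RBL2 (0.13). It did so in DMSO between lines for KDM5A (0.17), and in the line difference of the abemaciclib effect for RB1 (0.013) and LIN9 (0.43). It did so in the line difference of the combination effect for RBL2 (0.090) and KDM5A (0.15). Leaving out 1 library each, an uncalled value changed sign, with the range over the libraries left out, in MDA-MB-231 fulvestrant against DMSO for RB1 (-0.0034 to 0.12), RBL1 (-0.30 to 0.12), LIN9 (-0.22 to 0.51) and LIN54 (-0.39 to 0.33), and in the MDA-MB-231 combination against DMSO for KDM5A (-0.047 to 0.083). The sign also turned in the MDA-MB-231 combination against abemaciclib for RB1 (-0.25 to 0.026), RBL2 (-0.050 to 0.37) and LIN54 (-0.38 to 0.042), and in MDA-MB-453 fulvestrant against DMSO for RBL2 (-0.11 to 0.47) and LIN9 (-0.0026 to 0.42). The sign also turned in the MDA-MB-453 combination against abemaciclib for RB1 (-0.045 to 0.16), RBL1 (-0.14 to 1.47), RBL2 (-0.17 to 0.045), LIN9 (-0.008 to 0.70), LIN54 (-0.29 to 0.15) and MYBL2 (-0.19 to 0.47), and in the line difference of the abemaciclib effect for LIN9 (-0.57 to 0.036). The sign also turned in the line difference of the combination effect for LIN9 (-0.63 to 0.13) and LIN52 (-0.22 to 0.15).

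Replicate numbers are shared between groups in the labels but did not pair the libraries: deviations of same-numbered libraries correlated at -0.0536 to 0.0312 in MDA-MB-453 and -0.0774 to 0.0197 in MDA-MB-231. The replicate block gave 3 called genes against 4 between lines under DMSO (LIN9, 0.86, adjusted p = 0.104, edgeR) and the main count in the other 12 comparisons. The block together with the A-stretch score was not run because the numbers did not pair.

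Low counts limit RBL1, MYBL2 and FOXM1 in MDA-MB-453 with abemaciclib, where a group held 10, 19 and 87 counts, and LIN37 throughout. With the combination in that line the groups held 13, 22 and 49 counts. In MDA-MB-231, groups of RBL2 and LIN9 went down to 33 counts (RBL2, DMSO) and 38 counts (LIN9, abemaciclib).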
